A study of Mus musculus with 12 samples.

Results

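The proteins of the cytoplasmic ribosome were followed at the RNA level in RAW264.7 cells, a mouse macrophage line, across 4 treatments and 3 array slides. The genes were chosen by name alone: every non-control probe annotated Rpl or Rps with a number, or Rplp0, Rplp1, Rplp2 or Rpsa. The 10 S6 kinase names and the 15 names ending in -ps, which mark pseudogenes, were left out. This gave 85 genes with 185 probes, of 36281 features and 55681 probes on the array, with 33 names of the small subunit and 52 of the large. The name rule also takes Rps19bp1, which encodes a protein that binds Rps19 and is no subunit, and it misses some genes that do encode subunits, such as Rack1 and Fau.

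Group 1 received an siRNA against lincRNA-Tnfaip3 and LPS, group 2 that siRNA without LPS, group 3 a scrambled control siRNA and LPS, and group 4 the control siRNA without LPS. Cells had the siRNA for 24 h and then, in the LPS groups, 4 h of E. coli LPS at 1 µg/ml, a ligand of the receptor TLR4. Every group was measured on 3 arrays with Cy3-labelled RNA made from total RNA. Nothing in the labels states that these came from different cultures, and the p-values cover the spread among these arrays alone, which may be technical. No probe carried the name of the siRNA's target, so the group names say which siRNA was given. Of 10 macrophage markers, 9 (among them Cd68, Adgre1 and Csf1r) were well above background on all 12 arrays and Mrc1 on 0. Of 16 markers of other cell types 4 (Cd79a, Cd3e, Cd4 and Hba-a1) were well above background on all 12 arrays, and their part in the results was not tested.

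Groups and slides were not balanced. Both arrays of slide 1 were control-siRNA cells (replicates 1 and 2), both arrays of slide 3 were lincRNA-siRNA cells with LPS (replicates 2 and 3), and the remaining 8 arrays lay on slide 2. Slide 1 had 27217 and 29477 probes well above background, against 32734 to 36403 for the other slides. Values are log2 of the processed signal minus the array's 75th percentile of it (314 to 481 signal units across arrays). They are relative to the other signal of the same array, so they show neither the number of cells nor the RNA per cell. Levels of different probes are not compared as abundance.

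A ribosome joins a small subunit, which reads the mRNA, to a large subunit, which forms peptide bonds. Each protein is present as about a single copy per ribosome, except the stalk proteins, and cells coordinate their output mainly by translation: ribosomal protein mRNAs begin with a C and a run of pyrimidines, the 5′ terminal oligopyrimidine (TOP) element, through which mTOR and Larp1 control their use. In macrophages the mTOR pathway is also engaged by TLR4. The arrays measure RNA amount and not its translation. At the annotated starts of 64 of the 85 genes (76 starts, RefSeq, GRCm38.p6), a C followed by at least 4 pyrimidines began 17.1% of the starts, against 2.51% of all 32851 starts in the table. The search was on the transcribed strand and exactly at the annotated first base, so a start annotated a few bases away counts as having no match.

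Probe sequences carry a main result of these genes, so the probes of 5 transcripts are shown first. They were chosen after their values were seen, as the transcripts with the widest difference between their own probes, with Rpl17 set aside. Each line gives the last 30 bases of a 60-base probe, which has the sense of the mRNA, read 5′ to 3′. The name gives the gene and the position of the probe's first base in its transcript, as the files state it. Capitals mark AATAAA, the hexamer that in RNA directs cleavage and polyadenylation.
Rpsa 91: gcagatgaaggaggaggatgtcttcaaatt
Rpsa 876: cagccagccactgaggattggtcagtagct
Rpsa 990: gatggaaggaaAATAAAgttgctaaaagct
Rpsa 1340: gaacaaagttaatgctaaaaagttaatgcc
Rpl13 540: atccggaatgtgtacaaaaaggaaaaggcc
Rpl13 607: ttgccagtctccaaatggcccgtgccaatg
Rpl13 705: taattccgtgttggagagttgcAATAAAtt
Rps3a 523: agacatcctatgcgcagcaccagcaagtcc
Rps3a 718: tgctgaagaagcccaagtttgaattgggca
Rpl7 752: agaagaagacaactcactttgtagaaggtg
Rpl7 812: acaggcttattagaaggatgaactaaggtg
Rpl7 871: gttAATAAAcagtcacagcttggcaaaaaa
Rpl7 876: taaacagtcacagcttggcaaattggaaaa
Rpl23 363: tcatagtaaacAATAAAggagagatgaaag
Rpl23 492: taaaatatattcattaaagtctctgctctg
Rpl23 925: tgggaccaggtacacataacacagataaat

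On mm9, the build of the files, the Rpsa probes lie on the plus strand of chromosome 9. The probe at transcript position 91 covers chr9:120037601-120037660, that at 990 covers chr9:120040617-120040676 and that at 1340 covers chr9:120040967-120041026. The probe at 876 spans chr9:120040269-120040849, more than its own length, and so crosses a gap between aligned blocks. The probe at 990 lies within that span, so it is uncertain that both lie in the same spliced RNA. Of the Rpl13 probes, that at 705 covers chr8:125629070-125629129 on the plus strand, while that at 607 is placed at chr4:52254267-52254326, on another chromosome than the gene. The minus strand holds the Rps3a probe at 523 (chr3:85943041-85943100), the Rpl7 probe at 752 (chr1:16091865-16091924) and the Rpl23 probe at 363 (chr11:97639579-97639638). The files do not say whether a probe lies in coding sequence or in a UTR.

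Of the 85 genes 83 were tested, since some group had a probe of theirs well above background on each of its 3 arrays, and 82 of them were well above background on all 12 arrays. Rpl39l and Rps4l, paralogues of Rpl39 and Rps4x, were not tested. No probe was saturated. Several kept probes existed for 54 genes, and the one with the highest mean was used. The tested probes of Rps27 and Rps29 are placed on chromosomes 9 and 2, while the genes lie on 3 and 12. Ribosomal protein genes have many near-identical processed copies, so such values are uncertain.

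Within groups the genes had a lower median SD than all features, except with control siRNA alone. The median SD between the 3 arrays was 0.13 with the lincRNA siRNA and LPS, 0.11 with the lincRNA siRNA, 0.14 with control siRNA and LPS, and 0.25 with control siRNA alone (log2). Over all 23917 features the same medians were 0.20, 0.19, 0.17 and 0.19. Features were not matched by level, and the array medians of these genes were 8.22 to 8.86, against -0.61 to -0.48 over all features. Rpl27a (0.05), Rps7 (0.08) and Rps19 (0.08) had the lowest SD pooled over groups, and Rps24 (0.41), Rps3 (0.37), Rps21 (0.37) and Rpl4 (0.36) the highest. The control-siRNA arrays differed by slide. The median level of the 83 genes was 8.22 and 8.37 on its arrays from slide 1, against 8.74 on its array from slide 2. The other 9 arrays, from slides 2 and 3, had medians of 8.58 to 8.86.

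**Figure D1:**
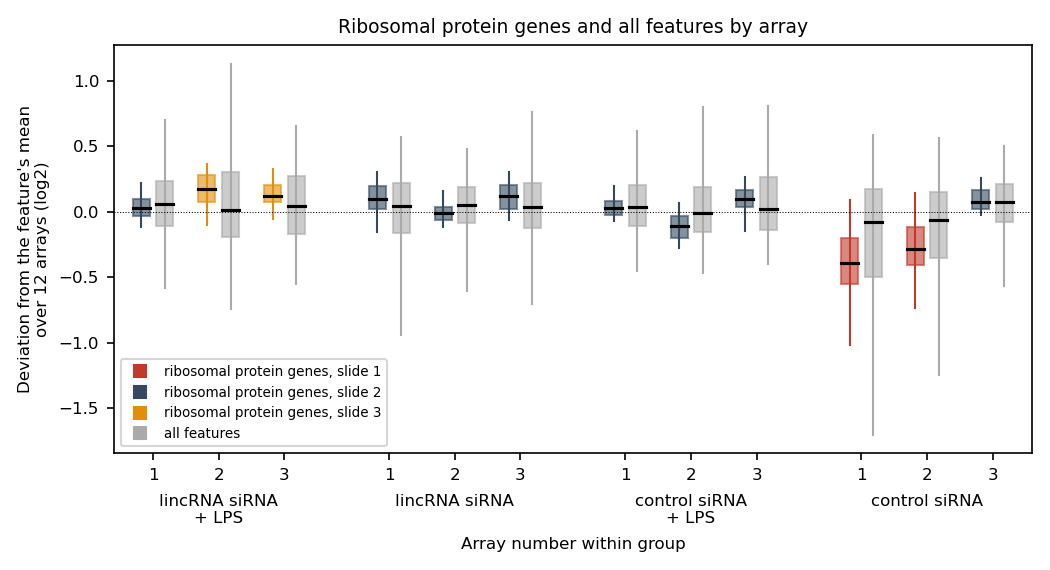
Deviation of each feature from its own mean over the 12 arrays (log2, y axis) by array (x axis), for the 83 ribosomal protein genes (coloured by slide) and all 23917 features (grey). Bars span the quartiles, thin lines the 5th to 95th percentiles and black lines mark medians. The medians of the ribosomal protein genes were -0.39 and -0.29 on the 2 arrays of slide 1 and -0.11 to 0.17 on the others.

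The first comparison asked whether 4 h of LPS moved ribosomal protein mRNAs in control-siRNA cells, and no gene passed. At an adjusted p under 0.05 over all features (limma, Benjamini-Hochberg), 0 of 83 genes rose and 0 fell, while 5.09% of all features passed. At an unadjusted p under 0.05 there were 10 genes, against 24.0% of all features. Their median change was 0.21 (log2), against 0.06 over all features, and 65 of 83 changes were above 0 (55.7% over all features). With the slide as a block, which rests on slide 2, 0 genes passed (0.962% of all features). There the median was -0.08 and 12 changes were above 0 (42.4% over all features). As a check of the LPS treatment, all 6 response genes listed for this purpose passed with either siRNA, and 5 of them with the slide as a block. Among them was Il6, a cytokine gene, at 6.84 ± 0.34 (SE, n = 3 per group, adjusted p = 1.01e-05).

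Rps24, a small-subunit gene mutated in some patients with Diamond-Blackfan anaemia, a failure of red cell production, had the highest change. It stood at 8.75, 8.74 and 8.89 with control siRNA and LPS, against 7.48, 7.80 and 8.98 with control siRNA alone. The LPS arrays lay between the slide 1 arrays and the slide 2 array of the unstimulated cells, so the groups overlapped. The log2 change was 0.71 (95% CI 0.01 to 1.40, adjusted p = 0.202), and it was -0.19 with the slide as a block. Rpl8, which lies at the peptide-bond centre, had a change of 0.70 (adjusted p = 0.156), Rpl10l 0.69, Rpl4, which lines the exit tunnel, 0.67 and Rpl7a 0.60. With the slide as a block these were -0.02, 0.29, -0.12 and -0.16. None passed in either fit. Without a slide term the probes of Rpl7a ran from -0.05 to 0.60 and those of Rpl8 from 0.13 to 0.70.

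The lowest change was that of Rpl3l, the muscle paralogue of Rpl3. It stood at -1.99, -2.01 and -1.96 with control siRNA and LPS, against -1.53, -1.67 and -1.44 with control siRNA alone. All LPS arrays lay below all unstimulated arrays. The log2 change was -0.44 (95% CI -0.77 to -0.10, adjusted p = 0.128), it did not pass, and it was -0.55 with the slide as a block. Under background correction by normexp with quantile normalization, and without array 1 of the lincRNA siRNA, it was the only gene of the 83 that passed (2.74% and 2.20% of all features passed as lower). Other low changes were those of Rpl21 (-0.24), Rps9 (-0.18) and Rpl18 (-0.17). In all, 4 of 83 genes had groups that did not overlap, Rpl10l above and Rpl3l, Rpl21 and Rpl27a (-0.05) below, against 30.0% of all features.

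In lincRNA-siRNA cells LPS again moved no gene of the set past the threshold. The counts were 0 higher and 0 lower of 83 (limma), and 1.83% of all features passed. At an unadjusted p under 0.05 there were 0 genes, against 10.1% of all features. The median change was 0.05 (log2), against -0.01 over all features, and with the slide as a block it was -0.04 with 0 genes past the threshold (0.661% of features). The changes spanned -0.35 to 0.20, and the 95% CI of all 83 lay within a 2-fold change in either direction and that of 73 within 1.5-fold. In control-siRNA cells these counts were 76 and 45.

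Rps21, a small-subunit gene, was lowest in that contrast, at 5.85, 6.13 and 6.20 with the lincRNA siRNA and LPS, against 6.53, 6.33 and 6.37 with that siRNA alone. All arrays with LPS lay below all arrays without it. The log2 change was -0.35 (95% CI -0.97 to 0.28, adjusted p = 0.792), and it did not pass. Rpl41, the shortest ribosomal protein, was highest at 0.20, followed by Rps14 at 0.17. Besides Rps21 only Rps19 (0.08, higher) had groups that did not overlap, 2 of 83 genes against 15.3% of all features.

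Comparing the siRNAs under LPS asked whether the lincRNA siRNA shifts ribosomal protein mRNAs in stimulated cells. The counts were 0 higher and 0 lower of 83 (limma, 0 with an unadjusted p under 0.05), and 0% of all features passed. The median change was 0.12 (log2), against 0.02 over all features, and 79 of 83 changes were above 0 (54.4% over all features). With the slide as a block the median was 0.02, 50 changes (60.2%) were above 0, against 58.2% over all features, and 0 genes passed (0.00836% of features). Rps3 was highest. It stood at 7.60, 7.66 and 7.34 with the lincRNA siRNA and LPS, against 7.44, 6.68 and 7.39 with control siRNA and LPS. The groups overlapped, and array 2 of control siRNA with LPS was the lowest of the 6. The change was 0.36 (95% CI -0.27 to 1.00, adjusted p = 0.976). Groups did not overlap for 6 genes (Rpl27a, Rpl3l, Rpl7a, Rps13 and Rps19 higher, Rpl10l lower), against 11.4% of all features, with changes of -0.17 to 0.13.

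Without LPS the lincRNA siRNA was set against the same control arrays that serve as the baseline of the LPS contrast, so both comparisons share them. The counts were again 0 higher and 0 lower of 83 (limma), with 0% of all features passing, and 19 genes, or 22.9%, had an unadjusted p under 0.05, against 18.3% of features. The median change was 0.26 (log2), against 0.07 over all features, and 73 changes were above 0 (58.2% over all features). With the slide as a block the median was -0.01, 36 changes (43.4%) were above 0, against 45.7% over all features, and 0 genes passed (0.00418% of features). Rps24 stood at 8.98, 8.86 and 8.95 with the lincRNA siRNA, against 7.48, 7.80 and 8.98 with control siRNA. Again only the slide 1 arrays were low. The change was 0.85 (95% CI 0.15 to 1.54, adjusted p = 0.231), and -0.05 with the slide as a block. Rps21 (0.81), Rpl8 (0.76), Rpl4 (0.75) and Rpl7a (0.72) followed. Rpl3l was lowest (-0.31), and Rps18 had -0.13. Groups did not overlap for 2 of 83 genes, both higher, against 21.3% of features.

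Both comparisons with unstimulated control cells rested on control-siRNA array 3, the array of that group on slide 2. Without it, 27 of 83 genes passed as higher with LPS (12.8% of all features passed as higher) and the median was 0.35. Without it, 30 passed as higher with the lincRNA siRNA (9.38% of features), with a median of 0.42. In those fits the unstimulated control cells lay on slide 1 alone, so that slide and group cannot be told apart. Array weights, which gave control-siRNA arrays 1, 2 and 3 weights of 0.78, 2.93 and 0.41, led to 24 genes higher and 1 lower (Rpl3l) with LPS (16.9% of features higher, 10.1% lower) and to 26 higher with the lincRNA siRNA (15.6% of features). The interaction, which tests whether the LPS change differs between the siRNAs, was passed by 0 of 83 genes (limma, 0 with an unadjusted p under 0.05) and by 0% of features. Its median was -0.15, and 0.05 with the slide as a block (0% of features passed). Without control-siRNA array 3, 5 genes passed it as lower, Rpl4, Rpl7a, Rps15a, Rps21 and Rps24, against 1.47% of all features.

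**Figure D2:**
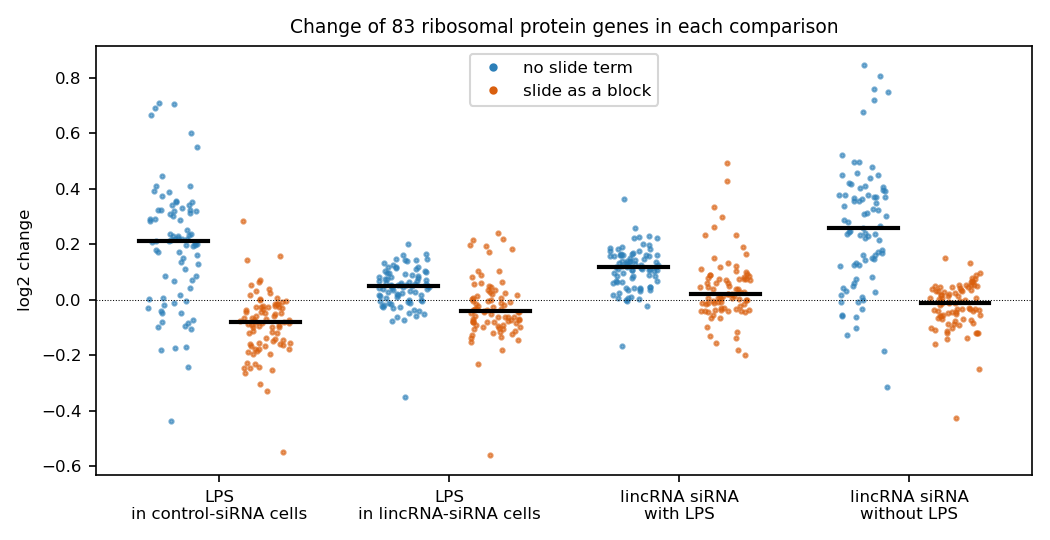
Log2 change of the 83 ribosomal protein genes (y axis) in the 4 comparisons (x axis), fitted without a slide term (blue) and with the slide as a block (orange). Each point is a gene and black bars are medians, which were 0.21, 0.05, 0.12 and 0.26 without a slide term and -0.08, -0.04, 0.02 and -0.01 with it.

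The genes of the stalk, which recruits elongation factors to the large subunit, had changes of -0.02 to 0.41 with LPS in control-siRNA cells. Rplp0, its base, stood at 9.44, 9.38 and 9.71 with control siRNA and LPS, against 8.88, 8.95 and 9.47 with control siRNA alone. The groups overlapped through the slide 2 array, and the change was 0.41 ± 0.18 (SE, n = 3 per group, adjusted p = 0.206). In the same contrast Rplp1 and Rplp2, the acidic proteins of the stalk, had 0.04 and 0.15, and Rpl12 had -0.02. A further Rpl12 probe had 0.26. The fit with a slide block put the 4 changes at -0.18 to 0.04. In lincRNA-siRNA cells they were 0.00 to 0.11, and none passed anywhere.

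Rpl5, Rpl11, Rpl23 and Rps7 encode proteins that, when free of the ribosome, bind the ubiquitin ligase Mdm2 and so stabilise p53. With LPS in control-siRNA cells their changes were 0.24, 0.32, 0.29 and -0.07, and -0.11 to -0.01 with the slide as a block. Without a slide term the probes of Rpl23 ran from -0.30 to 0.65 and those of Rpl11 from 0.22 to 0.55. Rpl11 stood at 9.37, 9.20 and 9.48 with control siRNA and LPS, against 8.81, 8.90 and 9.38 with control siRNA alone. Its change was 0.32 ± 0.15 (SE, n = 3 per group, adjusted p = 0.231). Rps7 was among the steadiest genes, with 7.35 to 7.61 over the 12 arrays. Of 15 genes mutated in Diamond-Blackfan anaemia in humans, which include Rpl5, Rpl11, Rps7, Rps19 and Rps24, 0 passed in any of the 4 contrasts, with a median of 0.23 with LPS in control-siRNA cells.

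Some ribosomal proteins have reported roles in immune cells. Rps3 is known from human cells as a partner of the NF-kB subunit RelA. Its LPS change was 0.13 in lincRNA-siRNA cells and 0.22 in control-siRNA cells, where other Rps3 probes gave values down to -0.25. Rpl13a, which in human monocytes leaves the ribosome after interferon gamma to silence inflammatory mRNAs, stood at 7.77, 7.65 and 7.84 with control siRNA and LPS, against 7.21, 7.27 and 7.81 with control siRNA alone. Its change was 0.32 (95% CI -0.05 to 0.70, adjusted p = 0.257), and a further Rpl13a probe gave -0.08. Rps19 and Rpl22, of which Rpl22 is needed for T-cell development in mice, had changes of -0.03 and 0.01, although another Rpl22 probe gave -1.08. None of the 4 genes passed in the 4 contrasts.

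The paralogues are genes related to those of core proteins, and some of them can replace a core protein in some tissues. Rpl22l1, Rpl36al and Rps27l had changes of 0.21, 0.25 and 0.23 with LPS in control-siRNA cells and -0.16, -0.24 and -0.04 with the slide as a block. For Rpl7l1 it was 0.07 without a slide term. Rpl10l, the testis paralogue of Rpl10, stood at -3.72, -3.76 and -3.48 with control siRNA and LPS, against -5.08, -4.02 and -3.94 with control siRNA alone. It was the member not well above background on all 12 arrays. The array of control-siRNA replicate 1, from slide 1, was the lowest. Its change was 0.69 (95% CI 0.10 to 1.28, adjusted p = 0.158).

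Rplp0, Rpl13a, Rps18, Rpl19 and Rpl32 are in common use as reference genes in quantitative PCR. None passed in the 4 contrasts. With the lincRNA siRNA against control siRNA, both without LPS, their changes were 0.45, 0.45, -0.13, 0.13 and 0.40, and -0.07 to 0.10 with the slide as a block. Rpl32 stood at 8.82, 8.78 and 8.93 with the lincRNA siRNA, against 8.05, 8.37 and 8.91 with control siRNA. Rpl19 stood at 8.69, 8.64 and 8.78 with the lincRNA siRNA, against 8.52, 8.49 and 8.70 with control siRNA. Rps27a, translated as a fusion with ubiquitin, had 0.26 in that comparison and Rps19bp1 -0.05. Rack1 and Fau, subunit genes that the name rule misses, had 0.45 and 0.33, and did not pass. Rack1 stood at 9.21, 9.08 and 9.22 with the lincRNA siRNA, against 8.32, 8.67 and 9.17 with control siRNA.

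Other parts of the translation machinery were counted from lists. With LPS in control-siRNA cells none passed of 75 tested ribosome biogenesis genes (median 0.00), 77 mitochondrial ribosomal protein genes (-0.09), 26 initiation factor genes (-0.07), 19 other genes with TOP mRNAs (-0.06), 15 genes of mTOR and TOP control (0.02) and 12 housekeeping genes (0.04). The cytoplasmic ribosomal protein genes had a median of 0.21 beside these. With the slide as a block their median was -0.08, against -0.05 for the biogenesis genes and -0.05 over all features. With the lincRNA siRNA against control siRNA, both without LPS and without a slide term, the medians of these lists were 0.06, 0.03, 0.05, 0.03, -0.01 and 0.21. Again none passed the threshold. With the slide as a block 1 of these genes passed, Mrpl33 of the mitochondrial ribosome, at 1.04 with LPS in control-siRNA cells (adjusted p = 0.0115). That fit sets the LPS arrays against 1 unstimulated control array of slide 2, and without a slide term the change was 0.35 (adjusted p = 0.386).

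Slides were then compared, with the group in the model. Slide 1 against slide 2 sets control-siRNA arrays 1 and 2 against array 3, with the spread taken from all groups. Of 83 genes 8 were lower and 0 higher on slide 1, against 1.56% of all features lower. These were Rps24, Rps21 and Rps15a of the small subunit and Rpl4, Rpl7a, Rpl8, Rpl35 and Rpl14 of the large. The median of the 83 genes was -0.41 (log2), against -0.12 over all features. Of their changes 77 were below 0 and 7.23% were above 0, against 34.9% above 0 over all features. An unadjusted p under 0.05 was found for 50.6% of the genes (42), against 13.3% of all features. For 53 genes both arrays of slide 1 lay below all 8 arrays of slide 2, which held for 22.0% of all features. Slide 3 against slide 2 passed for 0 of 83 genes (limma) and for 0.0167% of features. At an unadjusted p under 0.05 there were 2 genes (2.41%), against 6.03% of features. The genes had a median of 0.13, against -0.04 over all features.

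Rps24 stood at 7.48 and 7.80 on the slide 1 arrays of control siRNA, against 8.98 on the slide 2 array of that group. The slide term was -1.34 ± 0.16 (SE, adjusted p = 0.0152). Rpl4 stood at 5.97 and 6.25 on slide 1, against 7.29 on slide 2, with a term of -1.18 (adjusted p = 0.0297). Rps21 stood at 5.30 and 5.13, against 6.38, with a term of -1.16. Rpl7a stood at 6.66 and 6.94, against 7.94, with a term of -1.14. The terms of the other 4 were -1.09 for Rpl8, -0.995 for Rpl35, which sits at the mouth of the exit tunnel, -0.90 for Rps15a and -0.80 for Rpl14. Each term is that of 1 probe. Another probe of the same transcript differed between these slides by -0.29 for Rpl8, -0.19 for Rps15a, -0.08 for Rpl14 and -0.50 for Rpl7a. Rpl4, Rpl35 and Rps21 had 1 probe each. For all 8 genes both slide 1 arrays were below each of the other 10 arrays. The genes named first in the contrasts with unstimulated control cells, Rps24, Rpl8, Rpl4 and Rpl7a, are among these 8. Those contrasts and the slide 1 term use the same control-siRNA arrays, so this overlap is not an independent result. Not all genes were lower on slide 1: Rps18 stood at 8.39 and 8.31 on slide 1, against 8.02 on slide 2, a term of 0.33, and Rps19bp1, Rps9 and Rpl18 had terms of 0.31, 0.17 and 0.14. These did not pass. The count of 8 was 1 (Rps24) without control-siRNA array 1, 8 without array 2, and 2 to 6 when an array of another group was left out. Without control-siRNA array 2, 7 of the first 8 genes still passed and 1 did not. The shares of all features in these fits are not reported here.

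The size of the slide term depended on scaling. Scaled by each array's median, the median term of the 83 genes was -0.22, against 0.07 over all features, and 0 genes passed (limma, 0.226% of features lower). After quantile normalization it was -0.07, against -0.04 over all features, and Rps21 and Rps24 passed as lower (0.761% of features). After normexp background correction and quantile normalization it was -0.03, against -0.02 over all features. There 7 genes passed, among them Rpl4, Rpl7, Rpl7a, Rpl8 and Rps21 as lower (0.736% of features) and Rps18 as higher (0.85, with 0.0502% of features higher). Of the lists outside the ribosome, 2 genes passed in this comparison, the elongation factor gene Eef1a1 at -1.21 (adjusted p = 0.0421) and Mrpl33 at 1.04 (adjusted p = 0.0155).

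**Figure D3:**
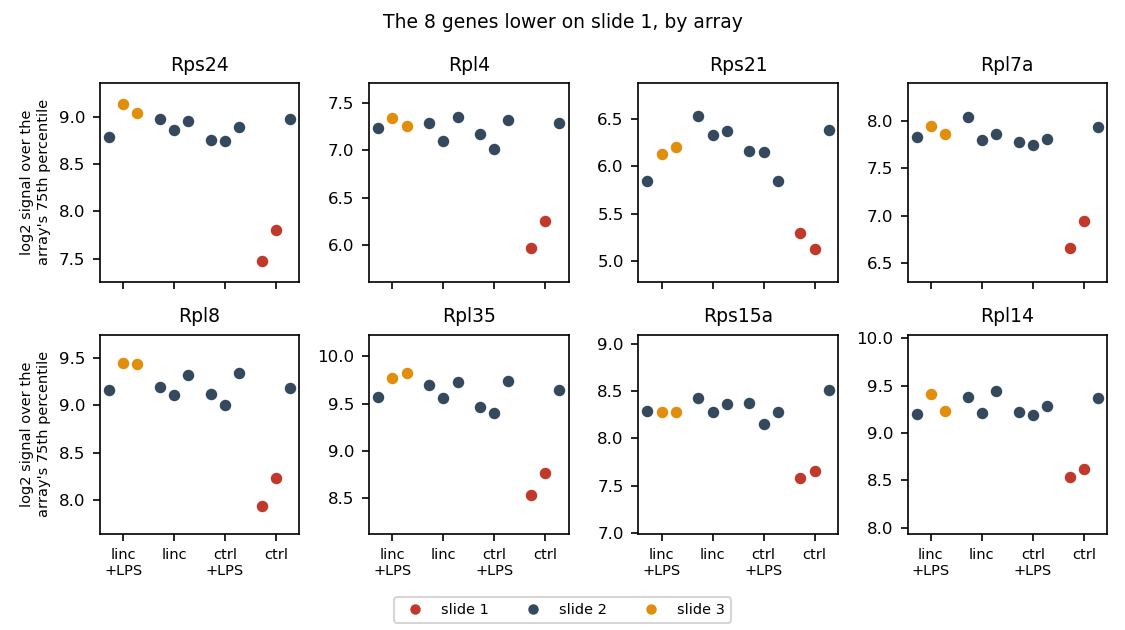
Level of the 8 genes that were lower on slide 1 (log2 signal over the array's 75th percentile, y axis, each panel spanning the same range) by group (x axis, lincRNA siRNA with and without LPS, then control siRNA with and without LPS). Each point is an array, coloured by slide. Arrays 1 and 2 of control siRNA, both from slide 1, lie below the other 10 arrays in each panel.

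Within a gene, the drop on slide 1 differed between probes. The difference given here is the mean of control-siRNA arrays 1 and 2 (slide 1) minus array 3 (slide 2), in log2. For Rpsa, a small-subunit gene that also encodes a laminin-binding protein, it was 0.15 at the probe at transcript position 91, -0.28 at 876, -1.75 at 990 and -0.36 at 1340. The Rpsa probe at 990 holds AATAAA, as printed above, and 25 adenines of its 60 bases, against 16 to 19 in the other probes. For Rpl13 it was -0.73 at 540 with 20 adenines, -0.02 at 607 with 21, and -1.58 at 705, which holds the hexamer and 24 adenines. For Rpl23 it was -1.13 at 363, where the hexamer lies, with 23 adenines, -0.46 at 492 with 16 and -0.02 at 925 with 21. For Rpl7 it was -0.06 at 752 with 20 adenines, -1.36 at 812 with 24 adenines and no hexamer, and -0.54 and -0.65 at 871 and 876, whose 60 bases hold both 20 adenines and the hexamer. Not all probes followed the count of adenines, as the Rpl13 probe at 607 and the Rpl23 probe at 925 show. For Rps3a the order was reversed, with -0.01 at 523, whose probe has 25 adenines, and -1.34 at 718, whose probe has 21.

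Across the 181 kept probes of these genes, the difference was lower with more adenines. The 21 probes with fewer than 15 adenines had a median difference of -0.15, the 39 with 15 to 17 had -0.18, the 53 with 18 to 20 had -0.30, the 44 with 21 to 23 had -0.53 and the 24 with 24 or more had -0.81. All 24 probes of the last bin were lower on slide 1, against 71.4% of the first. Among probes of these genes with a mean level over 6, the medians of these bins were -0.27, -0.23, -0.32, -0.56 and -0.81. There 81.25% of the probes in the first bin were lower on slide 1. Spearman's correlation with adenines was -0.60 over the 181 probes, against 0.29 for cytosines, 0.15 for guanines and 0.19 for thymines. It was -0.17 with the transcript position and -0.24 with the mean level. These probes share arrays and, in part, transcripts, so the values are descriptions. The 54 probes with AATAAA had a median of -0.68, against -0.24 for the 127 without it. The hexamer was searched on the probe's own strand only and was present in 29.8% of these probes, against 22.96% of other probes with a mean level over 6 and 11.4% of all other kept probes. Among those other probes over 6, the median was -0.32 with the hexamer and -0.16 without it.

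**Figure D4:**
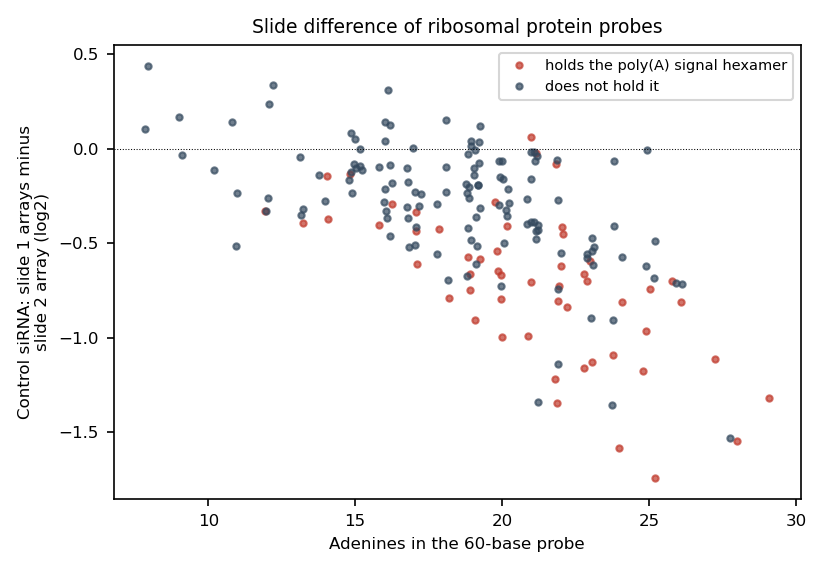
Difference between the slide 1 arrays and the slide 2 array of control siRNA (log2, y axis) against the number of adenines in the 60-base probe (x axis, points spread sideways for view), for the 181 kept probes of ribosomal protein genes. Probes with the polyadenylation hexamer are red and the others blue. Differences run lower with more adenines, with medians of -0.15 below 15 adenines and -0.81 at 24 or more.

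Probes of the same transcript were then compared. Among 47 transcripts with at least 2 probes well above background on all 12 arrays and unequal numbers of adenines, the richest probe was lower than the poorest in 35, with a median gap of -0.43. Among 23 transcripts with probes that hold and that lack the hexamer, those that hold it were lower in 17, with a median gap of -0.35. Probes of a transcript measure the same RNA up to its splicing, to processing of its ends and to copies elsewhere in the genome.

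The relation was seen on the 2 arrays of slide 1. Each array's deviation from the mean of the other arrays of slides 2 and 3 correlated with adenines at -0.57 and -0.59 (Spearman) on control-siRNA arrays 1 and 2. On the other 10 arrays it was -0.14 to 0.17. It was not particular to ribosomal protein probes. Among 1494 other probes with a mean level over 6, the correlation was -0.50 and -0.47 on those 2 arrays, and -0.11 to 0.12 on the other 10. By adenines, the median difference of the 399 such probes with fewer than 15 was -0.04 and that of the 127 with 24 or more was -0.79. Ribosomal protein probes with a mean level over 6 had -0.27 (16 probes) and -0.81 (22 probes) in these bins. Over all 32891 and 32892 other kept probes measured, the correlation on the slide 1 arrays was -0.08 and -0.12. Ribosomal protein probes had a median of 19 adenines, other probes with a mean level over 6 had 17 and all other kept probes 16.

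**Figure D5:**
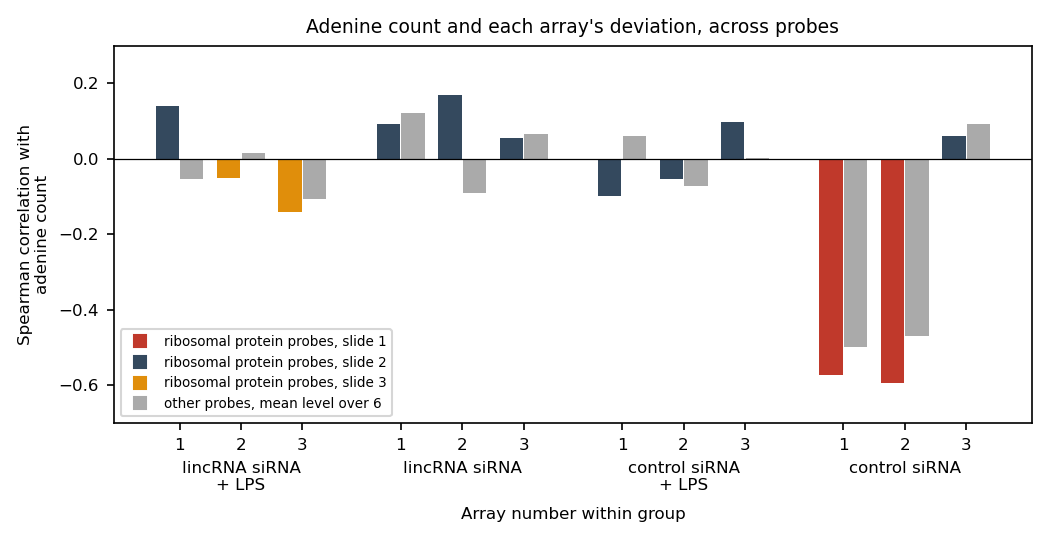
Spearman correlation (y axis, across probes) of the number of adenines with the deviation of an array from the other arrays of slides 2 and 3, by array (x axis). Bars coloured by slide are the 181 ribosomal protein probes and grey bars are 1494 other probes with a mean level over 6. Values are -0.57 and -0.59 for ribosomal protein probes on the slide 1 arrays and -0.14 to 0.17 on the others.

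Probes of a gene also differed in the contrasts between groups. Of 54 genes with more than 1 kept probe, probes pointed in both directions in 33 genes for LPS in control-siRNA cells and in 26 for the lincRNA siRNA without LPS. For the contrasts that use no slide 1 array, LPS in lincRNA-siRNA cells and the lincRNA siRNA with LPS, this was so in 20 and 17 genes. Rpsa probes gave changes of -0.11 to 1.19 with LPS in control-siRNA cells and of -0.01 to 0.14 in lincRNA-siRNA cells. When probes with 21 or more adenines were left out, 69 genes remained with a probe, and 0 of them passed in the comparison of slide 1 with slide 2 (limma), against 0.331% of features lower. Their median slide term lay within 0.16 of the -0.41 of the main fit, 0.16 being the SD of array medians pooled over groups. This bound does not give the size of the move. By probe, the bins under 21 adenines had median differences of -0.15, -0.18 and -0.30. Of the 8 genes that had passed 6 remained, all with terms below 0.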

How the data were processed

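The deposited scanner files hold spot intensity values from Agilent Feature Extraction 10.7.1.1, per the file headers, corrected within each array and not scaled between arrays, with probe positions on mm9. The authors' value table, deposited beside them, had a slope of 0.981 to 1.03 against the log2 intensity of the same array and a median of 4.75 in every column, so it was read as log2. How the authors scaled it is not stated in the sources.

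Outlier spots (104 to 258 per array) were dropped and spots of 1 probe averaged. The log2 processed signal was taken relative to the 75th percentile of each array. Filtering on probes well above background, throughout at least 1 group, left 33163 probes, and the brightest on average represented each of 23917 features. RefSeq accessions (GRCm38.p6) were found for 26582 probes and gave names and chromosomes.

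Group means over the 12 arrays were fitted in limma 3.58.1 (R 4.3.3), with Benjamini-Hochberg adjustment over all features and a threshold of 0.05. Slide terms came from that model with the slide added. The procedure was tested on simulated data. Alternatives covered the slide as fixed or random block, slide 2 by itself, the replicate number as block, other scalings, filters and probe rules, the authors' table, array weights and leaving out each array. Fits without slide 1, without adenine-rich probes, for every probe, and slide terms with an array left out were added after seeing the data. Named genes were the 5 highest and 5 lowest changes of each contrast, those that passed and the role lists, and others were named after their values were seen. Values of some genes under this rule are not reported here. Members and lists were chosen with earlier results of these data known. Precision is limited by having 3 arrays in each group. Protein sequences were not used here.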

Additional observations from a re-analysis of the deposited data

How the results depend on the processing

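Slides held the groups unevenly, no target probe checks the knockdown, and near-identical gene copies can share probes. The gene counts for LPS with the lincRNA siRNA, and for the lincRNA siRNA with LPS, were 0 under all 27 alternatives, of 83 genes in most of them, 69, 82 or 85 under other filters, and 181 probes tested one by one. The 8 genes that passed as lower on slide 1 had values below 0 under each alternative that gave them one.

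With LPS in control-siRNA cells the median log2 change (0.21) was -0.08 with the slide as a block, within slide 2 alone and without the arrays of slide 1, 0.03 with normexp, 0.02 with quantile normalization and in the authors' table, and -0.05 scaled by array medians, which put the median of all features at -0.20. The count of genes past the threshold (0) was 1 with normexp and 25 with array weights. For the lincRNA siRNA without LPS the median (0.26) was -0.01 in the 3 slide settings and 0.02 with normexp, quantile normalization and the authors' table, and the count (0) was 26 with array weights. The interaction median (-0.15) was 0.05 with the slide as a block and within slide 2 alone, 0.14 without slide 1 and 0.01 scaled by array medians.

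For slide 1 against slide 2 the count (8) was 2 with quantile normalization and the authors' table, 0 scaled by array medians and without probes of 21 or more adenines, 1 with no filter, 4 with the mean of a gene's probes and 15 of 181 probes tested one by one. Its median (-0.41) was -0.03 with normexp, -0.07 with quantile normalization, -0.08 in the authors' table and -0.22 scaled by array medians. Without probes of 21 or more adenines it moved by less than 0.16. For the slide 1 counts of 1, 4 and 15 the shares of all features are not reported here, so these counts lack that comparison. For slide 3 the median (0.13) was -0.04 with normexp and -0.03 with quantile normalization and the authors' table. The causes were not tested.

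Leaving out each array in turn gave counts of 0 to 27 for LPS in control-siRNA cells, 0 to 30 for the lincRNA siRNA without LPS, 0 to 5 for the interaction and 1 to 8 for slide 1, with the high counts of the first 3 without control-siRNA array 3. Medians ran over 0.10 to 0.35, 0.16 to 0.42, -0.28 to -0.05 and -0.47 to -0.33. Slide terms could not be fitted without control-siRNA array 3 (slide 1) or array 1 of the lincRNA siRNA with LPS (slide 3). Same-numbered arrays of different groups correlated at -0.30 to 0.47 (8 of 18 pairs over 0.1). Replicate numbers overlap in part with slides, so these values cannot decide whether the numbers pair arrays. With a replicate block the counts were 0 and the medians 0.21 and 0.05 for LPS.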
